A study of Monodelphis domestica with 9 samples.

Results

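HOX genes encode homeodomain transcription factors that lie side by side in clusters and give cells along the body axis their position. Genes with low paralog numbers start to be expressed at more anterior levels than those with high numbers. In mouse embryos the neural crest of the first pharyngeal arch, which forms Meckel's cartilage (MC) and the malleus, does not express them. HOXA2 marks the crest of the second arch, and its loss in the mouse turns second arch elements into copies of first arch ones. The question here was how much HOX transcript the first arch tissue of the grey short-tailed opossum (Monodelphis domestica) held. The genes described are every gene whose symbol was HOX with a cluster letter from A to D and a number, which gave 26 of the 22725 genes in the deposited table. They were 10 HOXA, 7 HOXB and 8 HOXD genes, plus HOXC6 alone of the HOXC cluster.

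The RNA came from untreated pups of a laboratory breeding colony, 3 at each of P16, P18 and P20 (postnatal days 16, 18 and 20), with no strain named in the labels. By the paper's methods, MC and the malleus were cut out together by laser around their junction, with a little perichondrium. Its results name only MC and its perichondrium, just in front of the malleus. The small amounts of RNA were amplified before sequencing. Values are condition means in FPKM (fragments scaled for transcript length and library total), made by the authors with Cuffdiff for each TSS group, a set of transcripts that share a start site. Here they were summed over the TSS groups of a gene. They carry the codes q1, q2 and q3, which the sources used here do not pair with the stages. No column holds the value of a single pup, so no error, depth or replicate check can be set beside any level below, and the order of neighbouring levels cannot be tested. FPKM is scaled for transcript length, so levels of different genes can be compared.

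Of the 26 genes, 25 were measured. HOXC6 is placed on chromosome Un, which collects unplaced sequence. All 1229 TSS groups of chromosome Un and all 32 of the mitochondrial genome are listed at 0 in q1 and q2, against 9.28% to 17.7% of TSS groups listed at 0 in q1 on any other chromosome. The 0 of HOXC6 is therefore no measurement. The same holds for COL2A1, the main cartilage collagen, and for the jaw homeobox genes DLX5 and DLX6, which also lie on chromosome Un. Shares over all genes were taken over the 21527 genes with a TSS group on another chromosome. The 10 HOXA genes lie on chromosome 8, for which q3 is not listed, so the values of q3 cover the 7 HOXB and 8 HOXD genes.

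Most HOX genes stood at very low levels in all conditions listed for them. Only 2 of the 25 measured genes, HOXD8 and HOXD9, reached an FPKM of 1 in any condition. None reached it in q1, where 45.5% of all measured genes did. In q2 it was 1 of 25 (HOXD8), against 48.5% of all genes, and in q3 it was 2 of 15, against 54.2%. The median HOX gene had an FPKM of 0.0543 in q1, where the median over all genes was 0.792. In q2 the median HOX gene was listed at 0 and the median over all genes was 0.915. In q3 the medians were 0.00754 over 15 HOX genes and 1.43 over all genes. Altogether 19 of the 25 genes stayed under 0.3 in every listed condition. For HOXA these conditions are q1 and q2 alone, and the same share over all genes was not taken. In such bulk tissue, fewer cells that express a gene and less of its RNA per cell cannot be told apart.

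**Figure D1:**
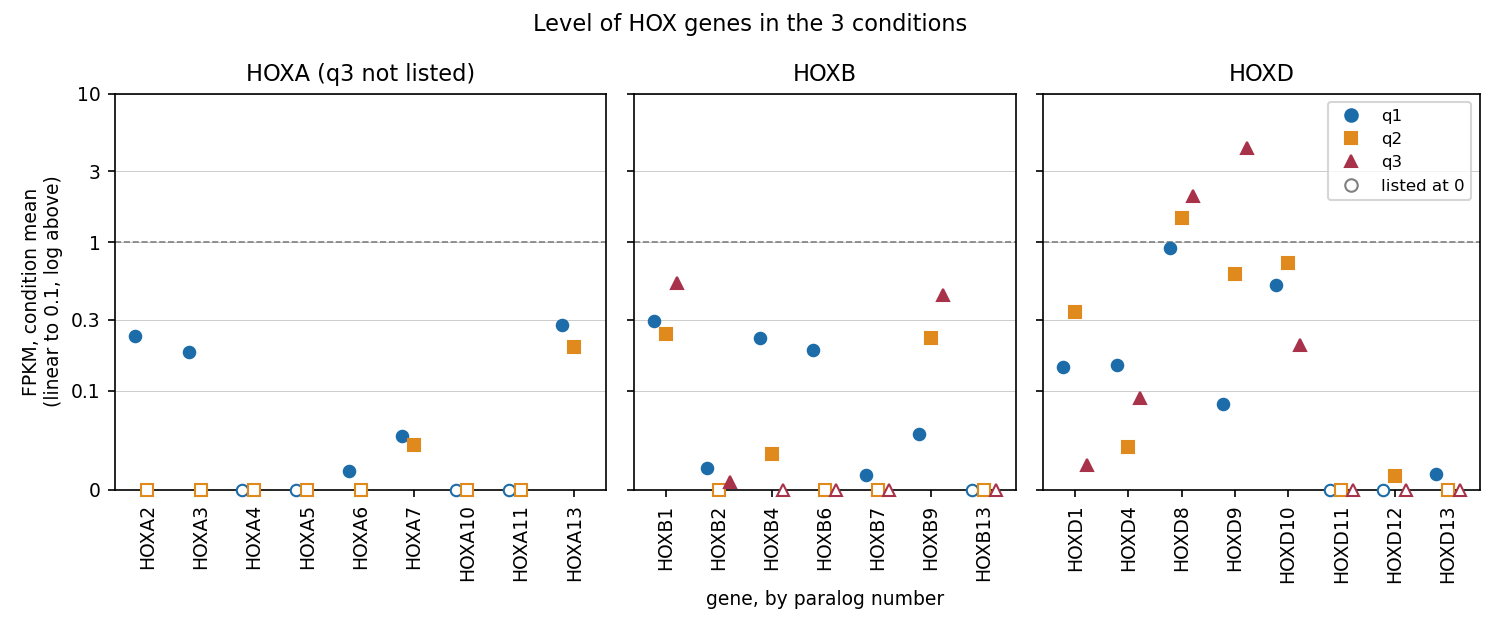
FPKM of 24 HOX genes (vertical axis, linear up to 0.1 and logarithmic above) in conditions q1 (circles), q2 (squares) and q3 (triangles), by cluster and paralog number. Open symbols are listed at 0 and the dashed line marks an FPKM of 1. HOXD8 and HOXD9 alone cross the line, at 2.03 and 4.32 in q3.

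The number of HOX genes listed at 0 was above the share over all genes in each condition. In q1 it was 8 of 25, against 12.5% of all measured genes. In q2 it was 14 of 25, against 19.7%, and in q3 it was 7 of 15, against 14.8%. From q1 to q2, 7 genes went from a value above 0 to 0 and 1, HOXD12, went the other way. For comparison, among all genes above 0 and under 0.3 in q1, 32.5% were listed at 0 in q2 and 20.2% in q3, against 7 of 15 and 4 of 10 for the HOX genes in this range. Of 17 HOX genes above 0 in q1, 12 were lower in q2, and 49.0% of all 9032 genes above 0 and under 1 in q1 were. Of 12 such HOXB and HOXD genes 8 were lower in q3 than in q1, and 43.1% of 7028 genes were. These counts come from condition means and carry no test.

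**Figure D2:**
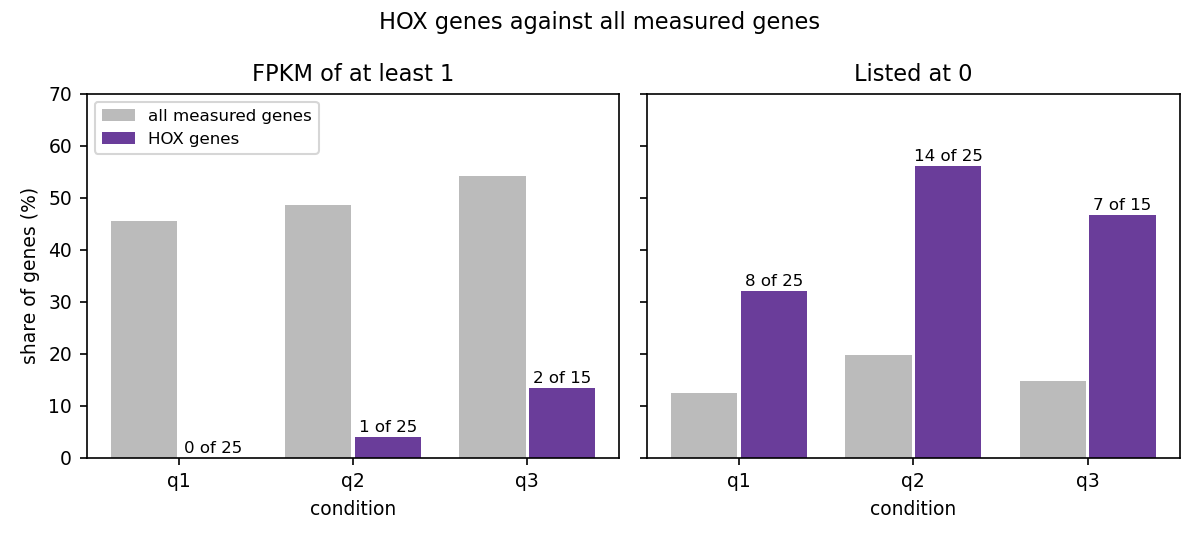
Share of genes in percent (vertical axis) with an FPKM of at least 1 (left) and listed at 0 (right) in conditions q1, q2 and q3. Grey bars are all measured genes and violet bars HOX genes, with their counts; 14 of 25 HOX genes were listed at 0 in q2, against 19.7% of all genes.

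Of the measured clusters HOXA, HOXB and HOXD, HOXD (chromosome 4, 187431095 to 187540762, with no build named in the sources) carried most of the HOX signal. HOXC was not measured and has no part in this ranking. The 8 genes of HOXD summed to 1.81, 3.19 and 6.67 in q1, q2 and q3. This was 53.7% of the sum over all measured HOX genes in q1 and 81.0% in q2. In q3, where HOXA is not listed, it was 87.3% of the sum over HOXB and HOXD. The 7 genes of HOXB (chromosome 2, 201101198 to 201365724) summed to 0.802, 0.505 and 0.973. The 10 genes of HOXA (chromosome 8, 297309768 to 297429569) summed to 0.765 in q1 and 0.243 in q2. HOXA and HOXB were thus nearly level in q1, while the sum of HOXD was more than that of both together.

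Within HOXD the signal lay in the neighbours HOXD8, HOXD9 and HOXD10, which in mice pattern the trunk, the spine and the limbs. They occupy 20.4 kb, with 234 bases between HOXD10 and HOXD9 and 5120 between HOXD9 and HOXD8. Their sum was 1.51, 2.80 and 6.55. The other 5 HOXD genes together made up 0.309, 0.395 and 0.118. HOXD8 (chromosome 4, 187471805 to 187478483) stood at 0.906, 1.46 and 2.03 FPKM in q1, q2 and q3, respectively. HOXD9 (chromosome 4, 187463910 to 187466684) stood at 0.0863, 0.614 and 4.32. HOXD10 (chromosome 4, 187458098 to 187463675) stood at 0.513, 0.723 and 0.203. HOXD8 thus led the family in q1 and q2 and HOXD9 in q3, while HOXD10 was lowest in q3. In q3 these levels were above those of 54.3% of genes for HOXD8, 65.0% for HOXD9 and 31.8% for HOXD10. HOXD8 was above 52.7% of genes in q1 and 58.3% in q2.

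The microRNA hairpin mdo-mir-10b lies in the same cluster between HOXD8 and HOXD4 and is 112 bases long. It was listed at 0 in q1 and q2 and at 1.28 in q3, with no test run. Since FPKM is scaled for length, few fragments can give this value at 112 bases, and their number is not known. The value is therefore not ranked with those of the HOX genes. The other microRNA hairpins inside the spans, mdo-mir-10a and mdo-mir-196a in HOXB and mdo-mir-196b in HOXA, were listed at 0 wherever listed. The spans also hold 3 genes known by Ensembl IDs alone, none of them above 0.0345. In HOXB they lie between HOXB2 and HOXB4 and between HOXB4 and HOXB6, and in HOXD at the coordinates of HOXD12. Members were taken by symbol, so whether these are HOX genes was not examined.

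Cuffdiff tested HOXD8 in q2 against q1, and HOXD8 and HOXD9 in q3 against q1, and no other HOX gene in the comparisons listed for it, which for HOXA is q2 against q1 alone. Every tested TSS group in the table had an FPKM above 1 in a condition compared, and the HOX genes other than HOXD8 and HOXD9 were under 1 in the conditions listed for them. A tested TSS group was found for 1 of 25 HOX genes in q2 against q1, against 47.4% of all measured genes. In q3 against q1 it was 2 of 15, against 54.4%. The table marked 0 of 1 HOX test as significant in q2 against q1, against 0.0348% of all 14363 tests. In q3 against q1 it marked 0 of 2, against 1.49% of 13485. A mark that is missing does not show that the levels were the same, and the table gives no interval for them.

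HOXD9 had a ratio of q3 to q1 of 50.0, which is 5.64 on the log2 scale, and was among the tests without a mark. Its level in q1 was near 0, so this ratio rests on a very small denominator. Of the 13564 genes above 0 in both conditions, 1.03% had a larger ratio. Among the 13485 tested TSS groups, 555 above 0 in both conditions had a ratio at least that of HOXD9, itself included. It was HOXD9 alone of the HOX genes that passed 1 FPKM between these conditions from a level under 0.1. From q1 to q2 its log2 ratio was 2.83 and from q2 to q3 it was 2.81. Without HOXD9 the HOXB and HOXD genes summed to 2.53, 3.08 and 3.33 over the 3 conditions, so HOXD9 makes up most of the difference between q1 and q3 in this sum.

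Among genes above 0 in both conditions the median gene was itself higher in q3, by 1.56 on the log2 scale against q1 and by 1.15 against q2, and q2 was above q1 by 0.49. Over all genes with 1 added to each FPKM these shifts were smaller, at 0.41 for q3 and 0.06 for q2 against q1. HOX genes above 0 in both conditions had a median log2 ratio of 0.12 for q2 against q1 (n = 10) and of 0.08 for q3 against q1 (n = 8). Of these, 5 of 10 and 6 of 8 lay below the median of all genes. Genes with a mean FPKM under 1 had medians of 0.16 and -0.10, close to those of the HOX genes. That set was chosen by the mean of the conditions compared, which leaves out low genes that rose far. The HOX genes were not filtered in this way, so the closeness cannot show that they shifted like low genes. HOXD8, with a log2 ratio of 1.16 for q3 against q1, lay 0.40 below the median of all genes, and 58.5% of genes had a larger ratio. HOXD9 lay 4.08 above that median.

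A log2 ratio of at least 2 was used as a mark of size, without a test. From q1 to q2, 2 of 10 HOX genes (HOXD9 and HOXB9) were higher by this much, against 7.57% of all genes, and 1 (HOXB4) was lower, against 5.26%. From q1 to q3, 2 of 8 (again HOXD9 and HOXB9) were higher, against 37.3% of all genes, and 1 (HOXD1) was lower, against 7.66%. Both comparisons share q1, so their values for HOXD9 and HOXB9 are not independent. All of these genes but HOXD9 were under 1 FPKM in every condition. With 1 added to each FPKM, 0 HOX genes passed this mark in q2 and 1 in q3.

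**Figure D3:**
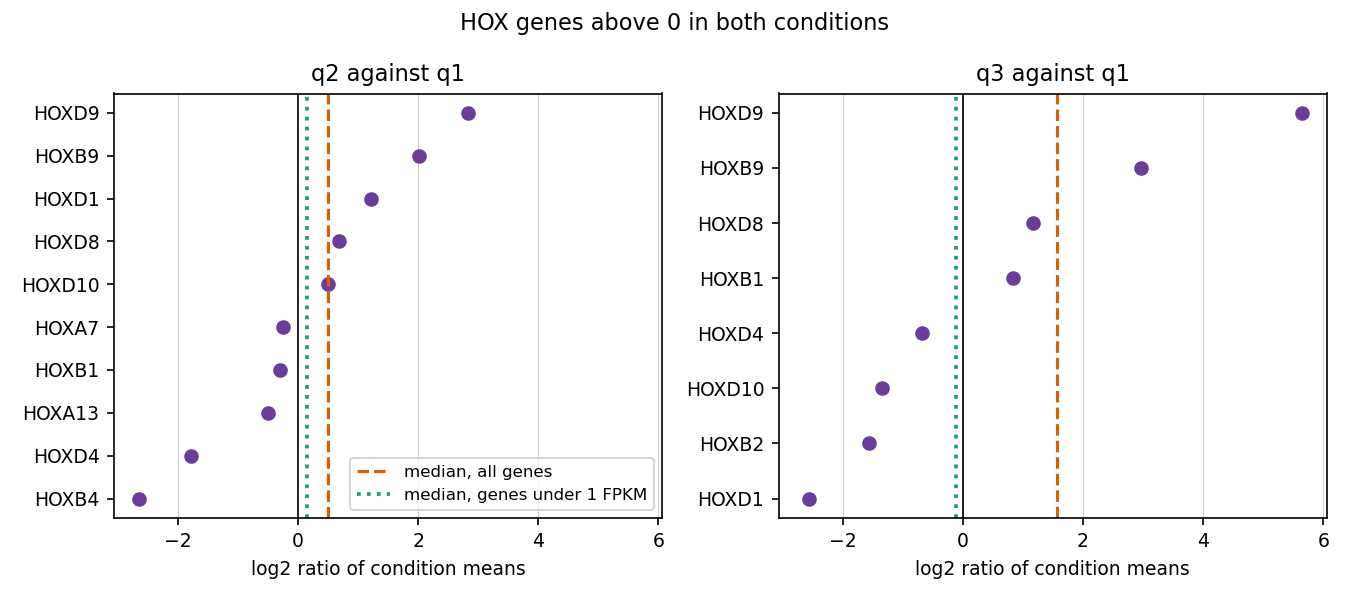
Log2 ratio of condition means (horizontal axis) of each HOX gene above 0 in both conditions, for q2 against q1 (left) and q3 against q1 (right). The dashed line is the median of all genes (0.49 and 1.56) and the dotted line that of genes with a mean FPKM under 1 (0.16 and -0.10); HOXD9 lies farthest to the right in both.

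The genes of the following 3 paragraphs were picked for description after their values were seen. Among those with low paralog numbers, HOXB1, which gives facial motor neurons their identity in the mouse hindbrain, stood at 0.295, 0.240 and 0.527 FPKM in the order q1, q2, q3. It was the highest HOX gene in q3 after HOXD9 and HOXD8. HOXA2, the gene of the second arch, has 2 TSS groups, which summed to 0.232 in q1 and were listed at 0 in q2. HOXA3, which acts in the third arch, in thymus and parathyroid formation, was at 0.181 in q1 and listed at 0 in q2. Both were below every HOXD8 value, and neither was tested in q2 against q1.

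HOXB2, a hindbrain gene, was at 0.0222, 0 and 0.00754. HOXB4, known for expanding blood stem cells, was at 0.227 in q1, 0.0363 in q2 and listed at 0 in q3. HOXD4 had 0.149, 0.0435 and 0.0931, and HOXD1, a gene of pain-sensing neurons in the mouse, had 0.145, 0.338 and 0.0247. The 5 HOXB and HOXD genes with paralog numbers 1 to 4 summed to 0.838, 0.658 and 0.652. These sums were lower in q2 and q3 than in q1. HOXA4 was listed at 0 in both of its conditions.

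Of the genes with high paralog numbers, HOXB9, which patterns the rib cage in mice, stood at 0.0562, 0.228 and 0.439 FPKM. HOXA13, a gene of the digits and the genital tract, was at 0.278 in q1 and 0.198 in q2, the highest of HOXA in both. HOXA7 was at 0.0543 and 0.0455. HOXB6 was at 0.187 in q1 and listed at 0 in q2 and q3. HOXA6, HOXB7, HOXD12 and HOXD13 had 1 value above 0 each, none over 0.0192. HOXA5, HOXA10, HOXA11, HOXB13 and HOXD11 were listed at 0 in every listed condition. HOXD9 apart, the 6 other HOXB and HOXD genes with paralog numbers 9 to 13 thus ranged from 0 to 0.723.

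By paralog number, over the HOXB and HOXD genes, paralogs 9 to 13 (7 genes) summed to 0.671, 1.58 and 4.96. Paralogs 5 to 8 (3 genes) summed to 1.11, 1.46 and 2.03, of which HOXD8 made up nearly all. In q2 and q3 the sums were thus higher the higher the paralog numbers, and in q1 paralogs 5 to 8 had the highest sum and 9 to 13 the lowest. Single genes made up most of these sums, such as HOXD9 with 4.32 of the 4.96 in q3. The medians did not follow this order. For paralogs 1 to 4, 5 to 8 and 9 to 13 they were 0.0435, 0 and 0.0142 in q2 and 0.0247, 0 and 0 in q3.

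Around the clusters, the nearest genes with a mean FPKM of at least 1 over q1 and q2, a minimum that HOXD8 alone of the HOX genes reached, lay 44.7 to 376 kb from the outermost HOX genes. Beyond HOXD1 this was MTX2, a protein of mitochondrial import, at 3.28 in q1, 5.06 in q2 and 6.03 in q3. Beyond the anterior end of HOXA it was SKAP2, an adaptor protein of blood cells, at 1.96 and 1.93, and beyond HOXB1 it was its relative SKAP1, at 2.47, 0.971 and 1.10. Beyond HOXB13 it was TTLL6, a tubulin-modifying enzyme of cilia, at 1.49, 0.696 and 0.581. EVX2 and EVX1, homeobox genes at the posterior ends of HOXD and HOXA, were as low as the HOX genes. EVX2 was listed at 0 in all 3 conditions and EVX1 was at 0.0447 in q1 and 0.159 in q2.

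Of a list of 21 genes known to flank the clusters in mammals, 10 were in the table and 8 had an FPKM of at least 1 in q1 and 8 in q2, with medians of 1.85 and 2.19. The highest were CBX1, a heterochromatin protein, at 12.8, 21.2 and 39.9, and CALCOCO2, an autophagy receptor, at 3.54, 4.86 and 11.2. MTX2 came next, and then SNX10, a sorting nexin needed by osteoclasts, at 0.951 in q1 and 3.63 in q2.

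The proteins that bind DNA together with HOX proteins had a higher median than the HOX genes, though single members were as low. Of 8 genes of the PBX, MEIS and PKNOX families, 6 had an FPKM of at least 1 in q1 and 6 in q2, and 5 of the 6 listed for q3 did. Their medians were 1.43, 1.51 and 5.10. PBX2 was at 2.31, 4.37 and 11.4. MEIS2 was at 2.49 in q1 and 3.39 in q2, and PBX3 at 1.23, 1.94 and 3.97. These partners also bind with other homeodomain proteins.

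Homeobox genes of the first arch and its skeleton stood in contrast to the HOX genes. Of 22 in the table, 20 were measured, of which 13 had an FPKM of at least 1 in q1 and 15 in q2, and 13 of 17 did in q3. The medians, over 19 of these genes in q1 and q2 and 16 in q3, were 2.54, 4.66 and 12.5. PRRX1, a transcription factor of limb and face mesenchyme, was at 18.1, 25.9 and 76.7. BARX1, a gene of the first arch and its molars, was at 11.2, 15.7 and 17.8, and SIX2, a gene of progenitor mesenchyme, was at 9.73, 8.41 and 17.0. NKX3-2 (Bapx1), which marks the early jaw joint, was named for its place in the joint and was at 2.02, 2.54 and 4.16. In each condition PRRX1 alone was above the sum of all measured HOX genes, which was 3.38 and 3.94 in q1 and q2, and 7.64 over the 15 genes listed for q3.

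**Figure D4:**
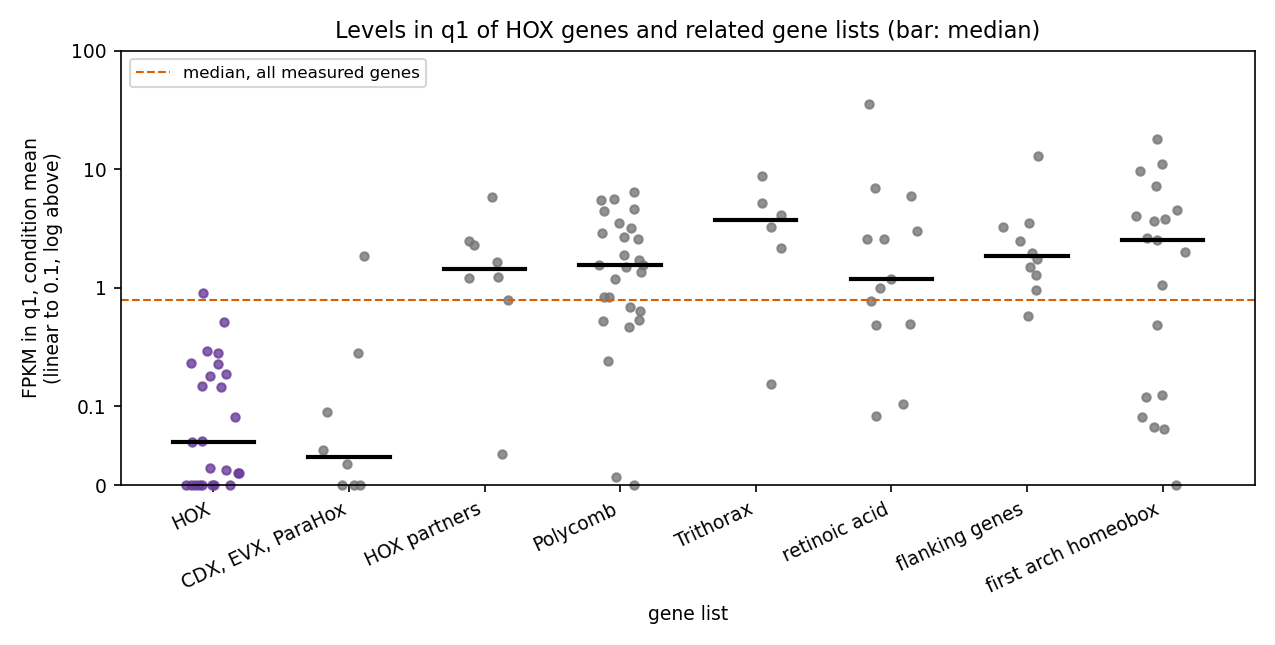
FPKM in q1 (vertical axis, linear up to 0.1 and logarithmic above) of each measured gene of the HOX family and of related lists, with a bar at each list's median and the median of all measured genes as a dashed line (0.792). The first arch list shows 19 genes; the HOX median is 0.0543 and that of the first arch list 2.54.

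CDX, EVX and ParaHox genes, homeobox genes of the trunk and gut, resembled the HOX genes in level. Of 8, 1 had an FPKM of at least 1 in q1 and 1 in q2, and none of the 6 listed for q3 did. This was CDX4, a regulator of Hox genes in the mouse, at 1.84 in q1 and 1.19 in q2. PDX1, a gene of the pancreas, was next, at 0.282, 0.116 and 0.

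Chromatin regulators that keep HOX clusters silent or active were measured. Of 27 Polycomb group genes, 17 had an FPKM of at least 1 in q1 and 18 in q2, and 17 of 19 did in q3. RING1, a ubiquitin ligase of the first Polycomb complex, was at 6.41, 11.8 and 26.9. MTF2, which recruits the other main Polycomb complex, was at 5.62, 7.54 and 22.1. Of 6 Trithorax group genes in the table, 5 had at least 1 in q1 and 5 in q2. DPY30 and RBBP5, subunits of H3K4 methyltransferases, were at 8.85 and 3.27 in q1 and at 19.5 and 12.1 in q2.

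Retinoic acid induces anterior HOX genes in embryos, and 8 of 13 genes of its metabolism and receptors had an FPKM of at least 1 in q1 and 9 in q2. CRABP1, its intracellular binding protein, was at 35.4, 99.7 and 91.6. DHRS3, which reduces retinaldehyde, was at 5.95, 12.6 and 28.9. For q3 against q1 the median log2 ratio was 2.13 over 6 HOX partners, 1.63 over 19 Polycomb genes, 1.78 over 5 Trithorax genes and 1.37 over 9 retinoic acid genes. The median over all genes was 1.56. These levels say nothing of whether the regulators acted on the HOX clusters.

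The marker genes of the captured tissue were present, with 8 of 8 measured cartilage genes and 7 of 7 bone genes at an FPKM of at least 1 in q1 and q2. COL9A2 and COL9A3, chains of cartilage collagen, were at 363 and 217 in q1, and BGLAP (osteocalcin) and COL1A1, the main bone collagen, at 441 and 633. For q2 against q1 the median log2 ratio of the 8 cartilage genes was -1.41, against 0.49 over all genes. For q3 against q1 it was 0.02 over the 6 cartilage genes listed for q3, against 1.56 over all genes. Markers of other cell types that can carry HOX transcripts were measured too. Among genes listed for q3, the 8 of clasts and myeloid cells summed to 1252, 4284 and 20185, and the 7 of endothelium to 22.2, 33.3 and 141. The highest were the resorption enzymes CTSK (671, 2935 and 12823) and ACP5 (368, 942 and 4403), and the endothelial adhesion molecules ESAM (8.81, 9.26 and 66.4) and PECAM1 (4.17, 6.30 and 21.1). All 7 of these endothelial genes were above 1 in q3, with 8.47 as the lowest. The 5 of blood progenitors and red cells summed to 5.45, 8.04 and 21.9, and the 4 of skeletal muscle to 1.58, 2.001 and 5.65. Over the whole lists the highest were CD34 (1.09, 3.59 and 12.2) and, not in that sum since q3 is not listed for it, ALAS2 (0.728 in q1 and 11.0 in q2) for blood, and ACTA1 (1.12, 0.995 and 2.64) and DES (0.448, 0.528 and 1.62) for muscle. The sums of the clast, endothelial, blood and muscle genes were highest in q3, as HOXD9 was. So were those of the 7 bone genes (1628, 6372 and 13630.5) and the 6 cartilage genes listed for q3 (675, 309 and 862). The median gene over all genes was itself higher in q3. Within the blood sum CD34, KIT and TAL1 were higher in q3 than in q1, while MYB and GATA2 were lower. The median log2 ratio of these 5 blood genes was 0.81 for q3 against q1, below the 1.56 of all genes. The part of these cell types in the level of HOXD9 was not tested. Muscle's defining factor MYOD1 was at 0.0137, 0.0161 and 0.424, and MYOG at 0, 0.463 and 0.957. Schwann cell and neuron genes (5) summed to 7.999, 6.83 and 3.40, the other direction, led by the neuronal genes TUBB3 (4.04, 3.89 and 0.0651) and STMN2 (3.05, 2.34 and 2.47), with ELAVL3 listed at 0 throughout. Epithelial genes (3) summed to 0.533, 0.272 and 0.384. Of the list EPCAM (1.65 in q1 and 0 in q2) and TP63 (0.173, 0.180 and 0.235) were highest by their mean in q1 and q2.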

How the data were processed

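Tissue of 3 pups at each of P16, P18 and P20 was sequenced. TopHat, Cufflinks and Cuffdiff stand in the submitters' notes on processing. Versions, build, annotation and library scaling are not given there or in the other sources used. The authors deposited FPKM as condition means per TSS group and no value per library, so depth is unknown and no model was fitted. Fold changes, p-values and q-values of the authors' own comparisons were not used, apart from whether a test was run and marked as significant. A shorter table repeats the first 294 of 65535 rows. Of 37421 TSS groups, 28026 are listed for q3 against q1 whether called or not, and q3 was used for the 16615 measured genes with every TSS group among these.

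FPKM was summed per gene symbol. Log2 ratios were computed from genes above 0 in both conditions, without a pseudocount. Genes only on chromosome Un or the mitochondrial genome (1198) were left out of shares. Of 39 HOX symbols in the RefSeq table of assembly mMonDom1, 26 are members, and the other 13 are not analysed here. Its coordinates were not used, and no sequence was given.

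The members, lists and tests were chosen with earlier results of these data known. HOX genes at an FPKM of at least 1 are named with all values, as are the 2 highest members of each list by their mean in q1 and q2, or 4 of partners, first arch homeobox and flanking genes. Some genes that this rule names are not reported here. The sums and ratios were checked on simulated data. Python 3.11.15, numpy 2.4.6, pandas 2.3.3 and matplotlib 3.10.9 were used.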

Additional observations from a re-analysis of the deposited data

How the results depend on the processing

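No paired analysis was possible because the table holds condition means only, and for the same reason no replicate could be left out. With a minimum of 0.5 FPKM, 2, 3 and 3 HOX genes reached the level in q1, q2 and q3, with a minimum of 0.1 it was 10, 7 and 5, and with a minimum of 2 it was 0, 0 and 2. Taking the highest TSS group, requiring every TSS group to be tested and keeping only genes listed for q3 changed no count. The median log2 ratio of q2 to q1 of 0.12 was 0 with a pseudocount of 1 or 0.1 over all 25 genes, 0.69 over the 1 gene with a mean FPKM of at least 1, and -0.37 when centred on the median of all genes. For q3 against q1 it was 0.08 as reported, -0.0208 and -0.18 with pseudocounts of 1 and 0.1, 3.40 over genes with a mean FPKM of at least 1, and -1.48 when centred. Centring on genes with a mean FPKM under 1, added after seeing the data, gave -0.0374 and 0.19. These medians thus have no settled direction. The 3 genes past a log2 ratio of 2 in size in each comparison became 5 in q2 and 6 in q3 at a log2 ratio of 1, and 0 and 1 with a pseudocount of 1 or with a mean FPKM of at least 1. When centred on the median of all genes they were 3 in q2 (1 higher and 2 lower) and 5 in q3 (1 higher and 4 lower), in place of 2 higher and 1 lower in each, with HOXD9 the 1 higher. The median of all genes, 0.49 for q2 and 1.56 for q3, was 0.0633 and 0.41 with a pseudocount of 1 and 0.16 and 0.91 with 0.1. With genes of chromosome Un and the mitochondrial genome, also added after seeing the data, 17.1% and 24.0% of genes were listed at 0 in q1 and q2.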
